A study of Mus musculus with 6 samples.

Results

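The Kruppel-like factors (KLF) followed here are the 10 genes Klf2, Klf3, Klf4, Klf5, Klf6, Klf7, Klf9, Klf10, Klf13 and Klf15, picked by gene symbol from the 19616 genes in a table of RNA-Seq read counts. RNA came from jejunal intestinal epithelial cells (IEC) released from the tissue with EDTA. The 3 control mice were wild-type and are named C1, C3 and C3-3, and the 3 Hdac1/2-deleted mice, named H1, H5 and H9, were villin-Cre Hdac1-/-; Hdac2-/- animals. All were 3 months old, and the methods of the study give a mixed C57BL/6J, 129SV and CD1 background. The villin promoter restricts Cre to the intestinal epithelium, so other cells that come along with the EDTA fraction keep both histone deacetylase genes. Each mouse gave 1 library. The comparison asks which members of the family differ in expression between wild-type IEC and IEC of mice in which both deacetylase genes were targeted.

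KLF proteins bind GC-rich and CACCC elements through C-terminal zinc fingers, and their less conserved N-terminal parts recruit different coactivators and corepressors. Several of the corepressors, such as the Sin3 and CtBP complexes, contain HDAC1 and HDAC2. In the intestinal epithelium KLF5 is known as a factor of proliferating crypt cells and KLF4 as a factor of differentiated and goblet cells, while KLF9, KLF10, KLF13 and KLF15 respond to hormones, TGF-beta or feeding in several tissues.

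Between 36111035 and 65902344 reads per library were counted on genes, and 3 counts, taken as the detection floor, equalled 0.0405 to 0.0790 CPM, the unit of expression used below, in which counts are scaled to a common library total. Such floors cover counting error only. Hdac1 fell in the Hdac1/2-deleted libraries, with a log2 fold change of -3.43, whereas the value for Hdac2 was -0.18 with an adjusted p of 0.44 (edgeR quasi-likelihood test). Counts over a whole gene do not show whether a floxed exon was lost, so the Hdac2 deletion rests on the labels. As for the epithelial label, 14 of 14 listed epithelial markers had counts in every library. Their summed level was 79426 to 87278 CPM in controls and 32023 to 40981 CPM in Hdac1/2-deleted libraries. Most of that difference lay in Apoa4 (38393 to 6283 CPM on average) and Apoa1 (22706 to 13216 CPM), the latter named with its value known. Of the 14 markers, 6 had a positive log2 fold change, and the median was -0.31. Paneth cell markers summed to 3352 to 5340 CPM in controls and 186 to 294 CPM in Hdac1/2-deleted libraries, and T cell markers to 148 to 557 CPM and 78.5 to 178 CPM. Endothelial markers summed to 2.63 to 7.13 CPM in controls and 9.21 to 11.4 CPM in Hdac1/2-deleted libraries, and 4 of 11 had 0 counts in at least 1 library. Egfl7 alone accounted for 6.44 to 7.21 CPM of the Hdac1/2-deleted sums. Control C3 carried 3082 counts over 4 Y-linked genes against 1 to 13 in the other libraries. By these genes C3 was male and the other mice were female. In such bulk samples, fewer cells of a type and less RNA per cell cannot be told apart.

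CPM values include the TMM factors, 1 for each library, that balance the libraries over most genes. Calls need both an adjusted p of 0.05 or less and a 2-fold difference, and a gene that meets both is named increased or decreased. All 10 members were among the 15618 genes that passed the filter on low counts and were tested. Klf10 was increased and Klf15 was decreased, so 1 of 10 members was called in each direction, against 12.4% of all tested genes increased and 12.7% decreased, or 2 of 10 against 25.2% in both directions. Klf9 and Klf6 passed the adjusted p but stayed just under 2-fold. Counting by the adjusted p alone, 2 members were higher, against 20.5% of tested genes, and 2 lower, against 20.3%, which makes 4 of 10 against 40.8%. The groups did not overlap for 7 of 10 members, against 53.2% of tested genes, namely 2 higher (26.7%) and 5 lower (26.6%). The median log2 fold change of the family was -0.29, compared with -0.0081 over all tested genes, and 7 members had a negative value. None of these shares sets the family apart from the genome-wide background, and the description that follows is of single genes. The number of increased members was 2 without H9 or without C1, when Klf9 passed 2-fold, and the number of decreased members was 2 without H1, when Klf6 did, or without C3-3, when Klf2 was called.

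**Figure D1:**
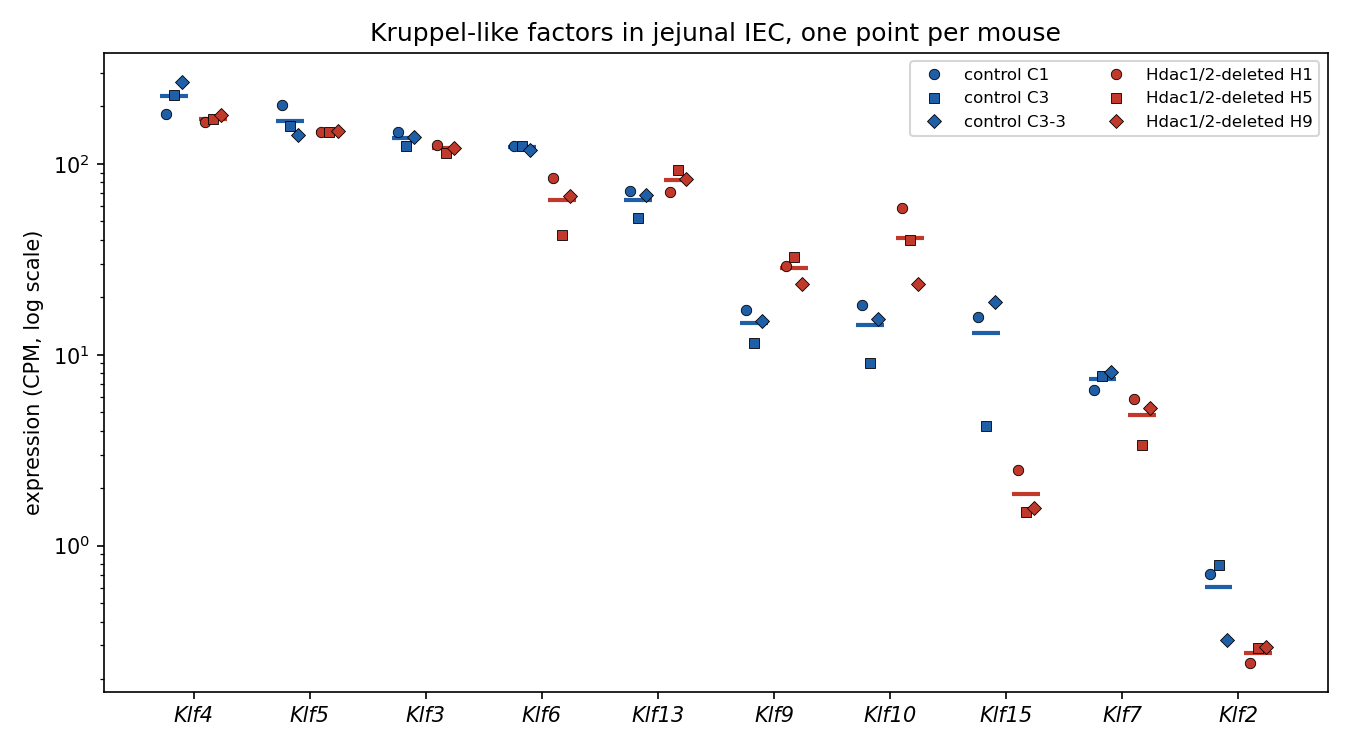
Expression of the 10 Kruppel-like factors in each mouse, in CPM on a logarithmic axis, with 1 point per library and a horizontal bar at the group mean; blue marks control and red Hdac1/2-deleted IEC. Klf15, Klf6, Klf9 and Klf10 do not overlap between the groups, from 4.25 CPM or more against 2.48 CPM or less for Klf15 and 18.2 CPM or less against 23.4 CPM or more for Klf10, whereas the points of Klf3 and Klf5 overlap.

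Promoter sequences are shown for Klf15, Klf6 and Klf3, the first and second because their RNA fell in Hdac1/2-deleted IEC and the last because its promoter was richest in the CACCC element that KLF proteins themselves bind. They come from RefSeq (GRCm38.p6), run from 250 bases before to 50 bases after the annotated start, and are written along the gene. Of the 10 members, 8 matched an entry, Klf5 and Klf10 being without one. Capitals mark the E-box CACGTG, the element of the clock factors CLOCK and BMAL1 among others, in Klf15 and Klf6, and CACCC on either strand, where it reads GGGTG, in Klf3. The Klf15 promoter is at chr6:90462326-90462625 on the plus strand, that of Klf6 at chr13:5861239-5861538 on the plus strand, and that of Klf3 at chr5:64803271-64803570 on the plus strand.
Klf15: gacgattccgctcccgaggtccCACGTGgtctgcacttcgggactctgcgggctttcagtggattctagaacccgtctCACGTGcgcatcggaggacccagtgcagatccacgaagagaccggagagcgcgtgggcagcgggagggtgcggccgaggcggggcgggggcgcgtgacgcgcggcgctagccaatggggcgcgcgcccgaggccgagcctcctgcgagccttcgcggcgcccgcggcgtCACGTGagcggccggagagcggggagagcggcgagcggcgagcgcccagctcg
Klf6: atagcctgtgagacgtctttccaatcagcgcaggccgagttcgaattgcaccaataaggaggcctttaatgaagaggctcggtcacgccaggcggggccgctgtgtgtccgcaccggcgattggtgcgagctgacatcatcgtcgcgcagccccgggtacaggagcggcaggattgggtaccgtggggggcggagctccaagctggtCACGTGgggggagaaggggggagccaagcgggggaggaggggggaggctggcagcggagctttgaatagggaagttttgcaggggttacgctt
Klf3: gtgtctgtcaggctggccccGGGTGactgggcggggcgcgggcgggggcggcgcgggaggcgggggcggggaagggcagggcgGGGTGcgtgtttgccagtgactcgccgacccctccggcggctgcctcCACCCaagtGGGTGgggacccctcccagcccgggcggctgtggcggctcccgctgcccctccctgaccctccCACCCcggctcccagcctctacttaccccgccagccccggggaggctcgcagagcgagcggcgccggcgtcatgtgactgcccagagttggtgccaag

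The Klf15 promoter held CACGTG 3 times, a number reached by 0.0883% of 32851 promoters of the same length, of which 7.15% held it at least 1 time. Klf4 and Klf6 held it 1 time each, so 3 of 8 member promoters had it. CACCC, searched on both strands, was present 5 times in Klf3, as in 1.02% of promoters, and in 6 of 8 members against 57.5% of all promoters. CCAAT was present in 4 of 8 members against 37.4%, with 4 copies in Klf6 and 3 in Klf9. TATAAA was in 0 of 8 member promoters, against 13.6% of all, and the inverted repeat of the glucocorticoid response element in 0 of 8, against 0.475%. The 8 promoters held 16 to 47 CG dinucleotides each, where the median of all promoters was 7 and the upper quartile 20. Klf7, with 16, lay below that quartile. These are matches of letters and were not tested for binding.

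Klf4 and Klf5, the factors best known from this epithelium, had the highest levels of the family per length and neither was called. Klf4 (ENSMUSG00000003032, chromosome 4 from 55527143 to 55532466 of GRCm38) was at 182, 231 and 269 CPM in C1, C3 and C3-3 and at 165, 172 and 180 CPM in H1, H5 and H9. Every Hdac1/2-deleted mouse lay below every control, but the lowest control and the highest Hdac1/2-deleted value were almost the same. The log2 fold change was -0.40 (standard error 0.17, 95% interval -0.77 to -0.02, adjusted p = 0.084, edgeR quasi-likelihood test), and without C1, the lowest control, the adjusted p was 0.023. Klf5 (ENSMUSG00000005148, chromosome 14 from 99298691 to 99315036) was at 203, 159 and 142 CPM in controls and at 147, 147 and 149 CPM in Hdac1/2-deleted IEC. The 3 Hdac1/2-deleted values fell inside the range of the controls. Its log2 fold change was -0.19 with a 95% interval of -0.54 to 0.17 (adjusted p = 0.37), an interval that leaves out a change of 2-fold in either direction.

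The balance of the pair differed more among controls than between groups. As a ratio of counts within a library, which needs no scaling, Klf4 over Klf5 was 0.895, 1.45 and 1.89 in C1, C3 and C3-3 and 1.12, 1.17 and 1.21 in H1, H5 and H9. Control C1 had the most Klf5 and the least Klf4, C3-3 the reverse, and the Hdac1/2-deleted libraries stood between them. Genes listed for the roles of both factors did not move as one. The share to set beside these and all later lists is 12.4% of all tested genes increased and 12.7% decreased. The 15 KLF5 and cell cycle genes held 2 increased and 0 decreased genes, and their median was 0.42 on the log2 scale. They were Egr1, a growth factor induced transcription factor (1.58), and Mcm2, a subunit of the replicative helicase (1.02), whose call ended without H1, H5, C3 or C3-3 because it fell under 2-fold, the lowest value being 0.84. The count was 4 without C1. The 14 KLF4 goblet and differentiation genes held 1 increased and 3 decreased genes, or 5 decreased without H5, and their median was -0.39. Tff3, the goblet cell trefoil peptide, was decreased (-1.56), as was Cdkn1b, a cyclin-dependent kinase inhibitor (-2.04), whereas Alpi, the intestinal alkaline phosphatase of enterocytes, was increased (1.20), a call that ended without H1, H5, C1 or C3-3 with values of 0.93 to 1.24.

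Klf3, a repressor that recruits CtBP, and Klf13 differed little between the groups. Klf3 (ENSMUSG00000029178, chromosome 5 from 64803388 to 64832901) was at 147, 124 and 138 CPM in controls and 126, 114 and 122 CPM in Hdac1/2-deleted IEC. The groups overlapped, with H1 above C3. Its log2 fold change was -0.18 (95% interval -0.47 to 0.12, adjusted p = 0.30) and turned to 0.0083 when libraries were scaled by their totals alone. Klf13 (ENSMUSG00000052040, chromosome 7 from 63886351 to 63938915), a factor known from T cells and heart, was at 72.4, 52.1 and 68.9 CPM in controls and 71.6, 93.4 and 83.5 CPM in Hdac1/2-deleted IEC. H1 lay below the highest control, so these groups overlapped too. A log2 fold change of 0.36 resulted (95% interval -0.02 to 0.74, adjusted p = 0.12), and with library totals alone it was 0.54 with an adjusted p of 0.040.

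Klf6, a widely expressed factor that is induced by injury and TGF-beta, fell in Hdac1/2-deleted IEC. Klf6 (ENSMUSG00000000078, chromosome 13 from 5861482 to 5870394) was at 124, 124 and 119 CPM in the 3 controls and at 84.8, 42.3 and 68.2 CPM in H1, H5 and H9. The controls were nearly identical, every Hdac1/2-deleted mouse was lower, and the spread lay within the Hdac1/2-deleted group, with an SD of 21.4 CPM against 2.97 CPM. The log2 fold change was -0.91 (standard error 0.23, 95% interval -1.43 to -0.39, adjusted p = 0.012, edgeR quasi-likelihood test). The adjusted p stayed at or below 0.05 in 12 of 12 alternatives, and without H1 the value was -1.14, past 2-fold. Klf7 (ENSMUSG00000025959, chromosome 1 from 64029447 to 64122282), the member closest to Klf6 in sequence and best known from neurons, was at 6.57, 7.74 and 8.09 CPM in controls and 5.89, 3.37 and 5.27 CPM in Hdac1/2-deleted IEC. The groups did not overlap and H5, the library with the fewest reads, was the lowest as for Klf6, but the change of -0.62 (95% interval -1.20 to -0.04) had an adjusted p of 0.084. Of the 8128 stretches of 50 bases in its exons, 3108 also lie in Gm26649, a gene on the other strand, and whether the counting used strand is not stated in the sources used here, so the Klf7 values are uncertain.

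Klf9 and Klf10, known as targets of glucocorticoid and thyroid hormone and of TGF-beta respectively, rose. Klf9 (ENSMUSG00000033863, chromosome 19 from 23141226 to 23168134) was at 17.2, 11.6 and 15.0 CPM in controls and 29.2, 32.5 and 23.6 CPM in Hdac1/2-deleted IEC. The lowest Hdac1/2-deleted library was above the highest control. The log2 fold change was 0.96 (standard error 0.20, 95% interval 0.51 to 1.41, adjusted p = 0.0044), or 1.95-fold, so that Klf9 missed the 2-fold limit narrowly and crossed it without H9 (1.08), without C1 (1.10) and with library totals alone (1.14). Klf10 (ENSMUSG00000037465, chromosome 15 from 38291463 to 38300706) was at 18.2, 9.07 and 15.4 CPM in controls and 59.1, 39.9 and 23.4 CPM in H1, H5 and H9. H1 had more than any other library and H9 stood close above the highest control. On the log2 scale Klf10 rose by 1.52 (standard error 0.38, 95% interval 0.63 to 2.41, adjusted p = 0.016), 2.86-fold, and it kept its call without each mouse in turn, from 1.15 without H1 to 1.80 without H9.

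Within a library, the ratio of Klf10 to Klf6 counts was 0.147, 0.0734 and 0.130 in controls and 0.697, 0.944 and 0.342 in Hdac1/2-deleted IEC. Both genes are known as TGF-beta responsive. Here Klf10 rose and Klf6 fell, and the part of TGF-beta in their values was not tested. In the list of 18 KLF10 and TGF-beta response genes, 16 were tested. Of these, 5 were increased and 1 was decreased, against 12.4% and 12.7% of all tested genes, and the median was 0.55 on the log2 scale. The decrease was not called without H1, H5, C3 or C3-3, nor with RLE scaling or library totals alone. Tgfbr2, the type II TGF-beta receptor, rose from 11.4 ± 2.28 to 83.2 ± 14.4 CPM (mean ± SD, n = 3), with a log2 fold change of 2.87 and an adjusted p of 2.1e-05 from the edgeR fit. Tgfbr3, the betaglycan co-receptor, rose by 2.33. For the ligand Tgfb1 the value was 0.38 (adjusted p = 0.53), and for Smad7, an inhibitor induced by the pathway, it was -0.49 (adjusted p = 0.12). The sister inhibitor Smad6 rose by 1.94 (adjusted p = 2.7e-04), and Id1 and Id2 rose by 1.51 and 1.40. By the adjusted p alone, 8 of the 16 genes were higher and 3 lower. Skil (-0.49, adjusted p = 0.035, edgeR) and Smad4 (-0.53, adjusted p = 0.021) were among the lower ones. Tgfb1, Smad7, Smad6, Id1, Id2, Skil and Smad4 were singled out after their values had been seen.

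**Figure D2:**
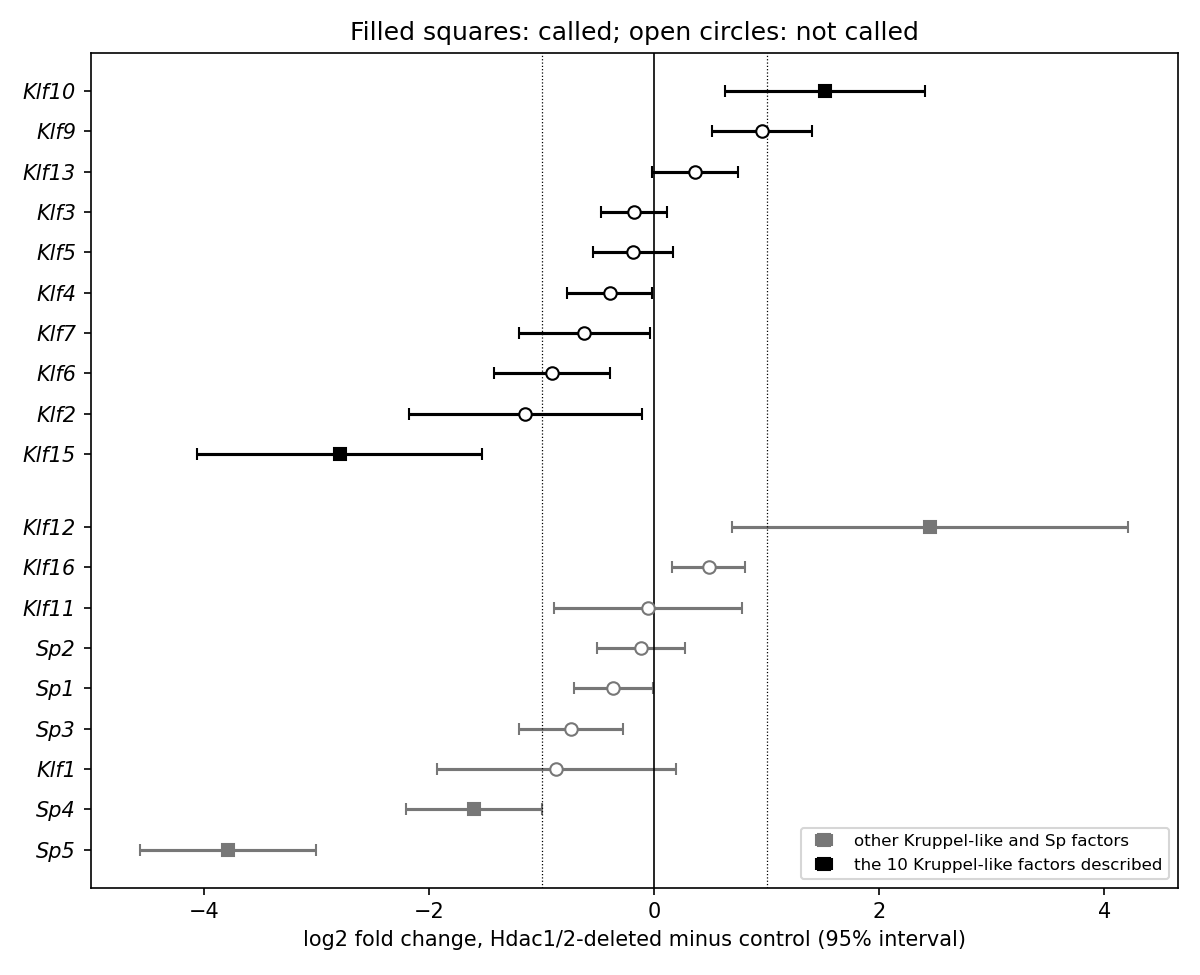
Log2 fold change of each tested Kruppel-like or Sp factor, Hdac1/2-deleted minus control, with its 95% interval; black marks the 10 members, grey the other family genes, filled squares those with an adjusted p of at most 0.05 and at least 2-fold, and dotted lines 2-fold. Klf10 (1.52) and Klf15 (-2.80) are the called members, and Klf9 (0.96) and Klf6 (-0.91) sit just inside the dotted lines with intervals that leave out 0.

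**Figure D3:**
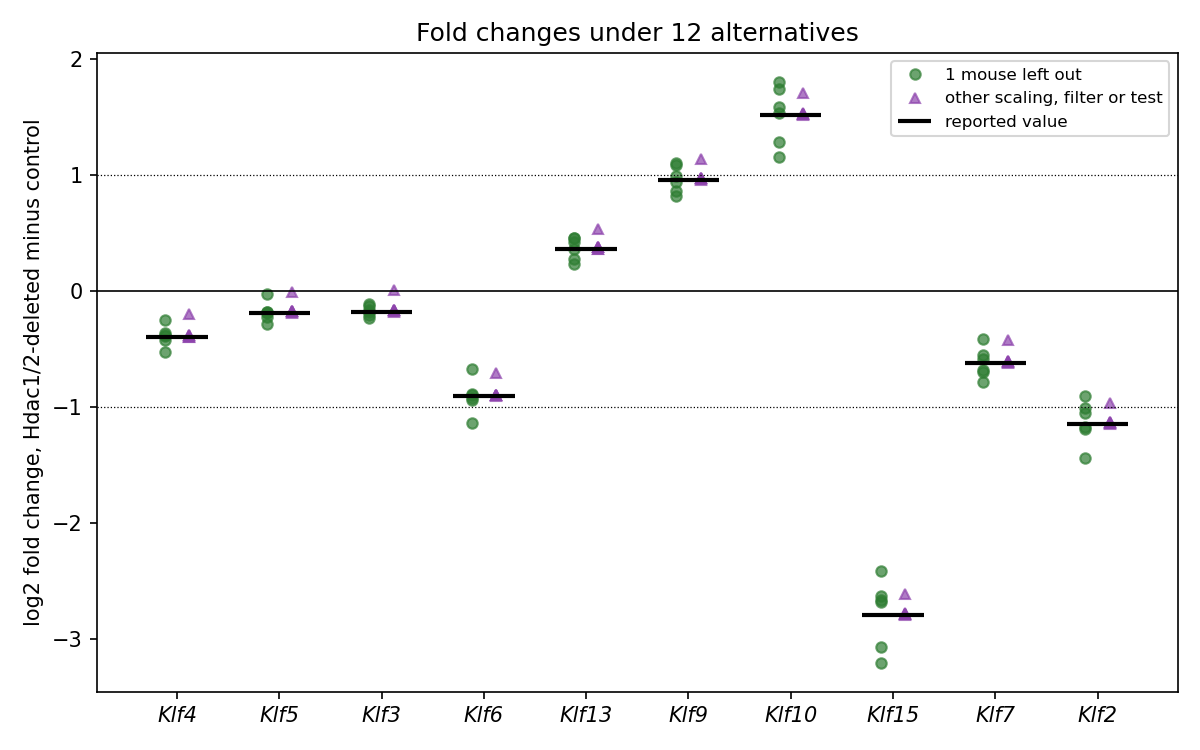
Log2 fold change of each member, Hdac1/2-deleted minus control, as reported (black bar), with 1 mouse left out (green circles) and under another scaling, filter or test (purple triangles); dotted lines mark 2-fold. Klf15 stays between -3.21 and -2.41 and Klf10 between 1.15 and 1.80 over the omitted mice, whereas Klf9 and Klf6 straddle the dotted lines and Klf3 touches 0.

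Klf15, which promotes amino acid and fatty acid use in muscle and liver and is induced by glucocorticoids, changed more than any other member. Klf15 (ENSMUSG00000030087, chromosome 6 from 90462576 to 90475238) was at 15.7, 4.25 and 19.0 CPM in C1, C3 and C3-3 and at 2.48, 1.5 and 1.58 CPM in H1, H5 and H9. The groups did not overlap, yet C3 was closer to H1 than to the other controls. Klf15 was 6.95-fold lower after Hdac1/2 deletion, or -2.80 on the log2 scale (95% interval -4.06 to -1.53, adjusted p = 0.0049, edgeR quasi-likelihood test). Without C3 it was -3.21 (adjusted p = 1.2e-04) and without C3-3 it was -2.41 (adjusted p = 0.010). The ratio of Klf15 to Klf9 counts within a library, which needs no scaling, went from 0.912, 0.368 and 1.26 in controls to 0.0851, 0.0462 and 0.0668 in Hdac1/2-deleted IEC. The 2 genes moved in opposite directions. Both are known as glucocorticoid targets, and the part of glucocorticoids in their values was not tested. The paper counts Klf15 among newer Paneth cell markers and reports its decrease as a sign of changed differentiation of these cells. Of 10 Paneth cell markers, 8 were decreased in the same libraries, among them Ang4 (-5.33) and Defa24 (-5.13). Their summed level was 5340, 3352 and 3623 CPM in C1, C3 and C3-3 and 284, 294 and 186 CPM in H1, H5 and H9. Their part in the Klf15 difference was not tested.

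The median over 19 tested KLF15 amino acid and lipid fuel genes was -0.18 on the log2 scale, and 2 of them were increased and 6 decreased. Pdk4, the kinase that shuts off pyruvate dehydrogenase in fasting, was decreased (-5.89, and -5.29 without C1), and so was Cd36, a fatty acid transporter (-4.88). Bcat2, the mitochondrial branched-chain aminotransferase, was at 12.6, 14.6 and 21 CPM in controls and 6.86, 6.71 and 4.58 CPM in Hdac1/2-deleted IEC, with a log2 fold change of -1.41 (adjusted p = 0.0024, edgeR). Prodh, the first enzyme of proline breakdown, fell by 0.92 (adjusted p = 0.0093), under 2-fold. Bcat2 and Prodh were picked out after their values had been seen, and 8 of the 19 tested genes of the list had a positive value. Got1, the cytosolic aspartate aminotransferase, rose by 1.85. Tat, the tyrosine aminotransferase, rose by 6.02 from a level of 0.0793 ± 0.00992 CPM to 5.35 ± 6.57 CPM, where the SD exceeds the mean, and by 4.27 without H5.

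Genes that answer glucocorticoids are of interest beside Klf15, which fell, and Klf9, which rose. Their list had 13 tested genes with a median of -1.02 on the log2 scale, of which 6 were decreased and 0 increased, and without C3-3 the increased genes numbered 2. Nr3c1, which encodes the glucocorticoid receptor, was at 118, 112 and 110 CPM in controls and 55.5, 41.5 and 54.4 CPM in Hdac1/2-deleted IEC, which gave -1.17 on the log2 scale (adjusted p = 3.9e-04, edgeR). The control libraries were tightly grouped and all above the Hdac1/2-deleted ones. Sgk1, a kinase induced by steroids, was decreased (-4.05, and -3.15 without C1), as was Tsc22d3, which encodes GILZ (-3.54, and -2.80 without C1). Zbtb16 was decreased (-4.70, and -3.27 without C1) and was not called without H1, H5 or H9. Fkbp5, another target of the receptor, was at 198, 9.16 and 104 CPM in controls and 127, 106 and 85.0 CPM in Hdac1/2-deleted IEC, with a log2 fold change of 0.03 (adjusted p = 0.98). The groups overlapped, and C3 stood far below every other library. Positive values were those of Fkbp5, Mt1 and Mt2, 3 of 13 tested genes, and these were not called. Mt1 rose by 2.10 (adjusted p = 0.066, edgeR) and Mt2 by 2.07 (adjusted p = 0.27). Nr3c1, Tsc22d3, Fkbp5, Mt1 and Mt2 were singled out with their values known.

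Control C3, low for Klf15, was also the lowest control for Klf3, Klf9, Klf10 and Klf13. It was the only male by its Y-linked counts, and the part of sex in its values was not tested. The controls differed widely among themselves in clock genes, with C3 at one end for some and C3-3 for others. Per2, a clock repressor, was at 24.1, 6.23 and 25.6 CPM in controls and 10.2, 8.61 and 8.94 CPM in Hdac1/2-deleted IEC. Dbp, a clock output factor, was at 25.6, 4.30 and 156 CPM in controls and 28.3, 5.69 and 37.4 CPM in Hdac1/2-deleted IEC. Arntl, which encodes BMAL1 and peaks opposite to Dbp, was at 42.0, 57.2 and 13.5 CPM in controls and at 16.1, 27.1 and 13.8 CPM in Hdac1/2-deleted IEC. C3 had the least Per2 and Dbp of the controls, and C3-3 the most Dbp and the least Arntl. Nr1d1, another clock repressor, was at 91.4, 145 and 308 CPM in controls and 54.4, 40.5 and 84.4 CPM in Hdac1/2-deleted IEC. In both groups the library with the least Dbp, C3 and H5, had the most Arntl. Per2, Dbp and Arntl were chosen after their values had been seen. Klf15, Klf9 and Klf10 are known as genes with a daily rhythm in several tissues, and the time of day of tissue collection is not given in the sources used here, so its part in the Klf15, Klf9 and Klf10 differences was not tested.

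The median over 17 tested circadian clock genes was -0.92 on the log2 scale, and 0 were increased and 2 decreased. Hlf, a clock output factor, was decreased (-5.55, and -4.92 without C3-3 or -6.20 without H9). Nr1d1, which encodes REV-ERB alpha, fell by 1.60 and lost its call without H1, H5, C3 or C3-3, with a value of -0.98 without C3-3. Without C1 the increased clock genes numbered 1. Leaving out C3 brought the decreased clock genes to 7, among them Per2 (-1.42) and Tef (-2.01), and leaving out C3-3 brought them to 4. Tef, like Per2, was named after its value was known. The Klf9 and Klf10 values without C3 were 0.82 (adjusted p = 0.014) and 1.28 (adjusted p = 0.034), so that their direction opposed that of Klf15 with or without this mouse.

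**Figure D4:**
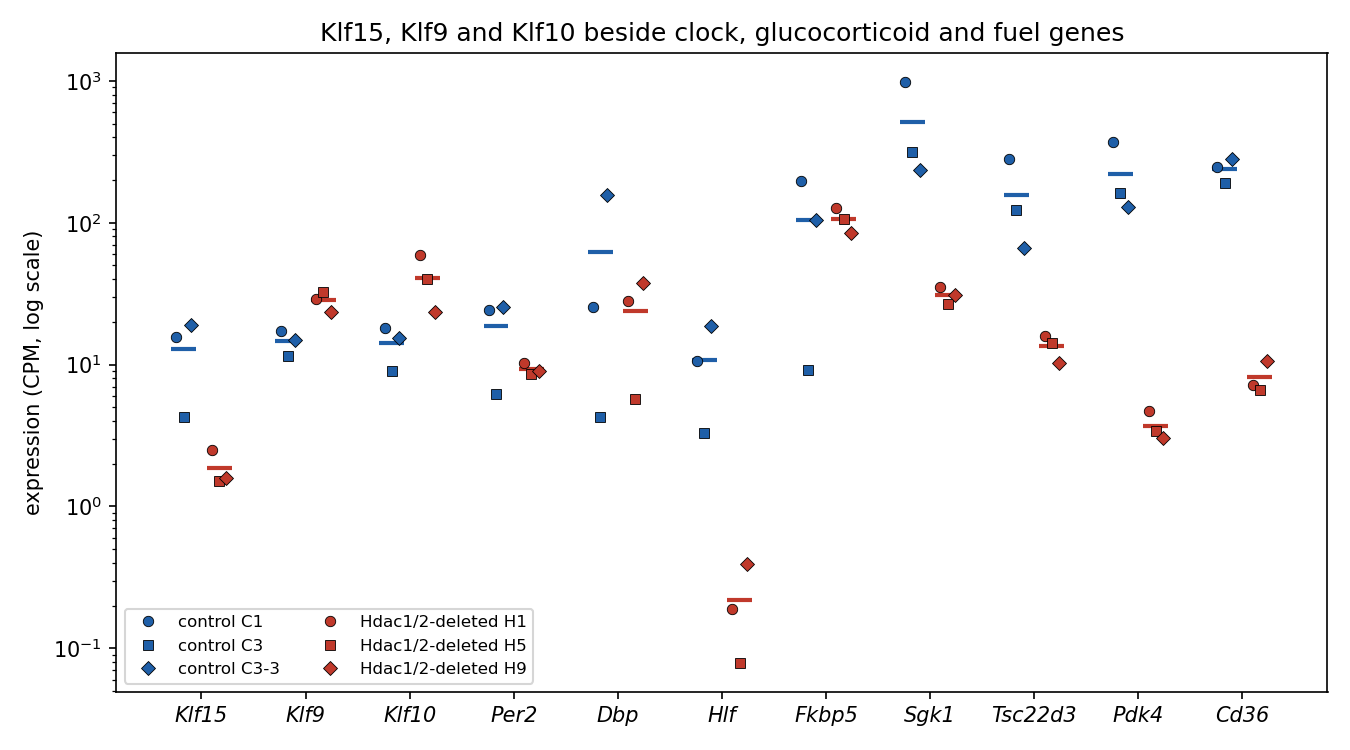
Expression in CPM, on a logarithmic axis, of Klf15, Klf9 and Klf10 beside the clock genes Per2, Dbp and Hlf, the glucocorticoid targets Fkbp5, Sgk1 and Tsc22d3, and the fuel genes Pdk4 and Cd36, with 1 point per mouse and bars at group means. The blue square, control C3, is the lowest control for Klf15 (4.25 CPM), Per2 (6.23 CPM), Dbp (4.30 CPM) and Fkbp5 (9.16 CPM). It is also the lowest control for Klf9, Klf10, Hlf and Cd36, but not for Sgk1, Tsc22d3 or Pdk4. Klf9 and Klf10 are higher in all 3 Hdac1/2-deleted mice.

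Klf2, a factor of endothelial cells and resting lymphocytes, was near the bottom of the measurable range. Klf2 (ENSMUSG00000055148, chromosome 8 from 72319033 to 72321656) had 47, 44 and 17 counts in controls and 18, 11 and 18 counts in Hdac1/2-deleted IEC, which are 0.710, 0.792 and 0.320 CPM and 0.243, 0.290 and 0.293 CPM. The groups did not overlap, but C3-3 was only slightly above the Hdac1/2-deleted libraries. The log2 fold change was -1.15 (95% interval -2.18 to -0.11, adjusted p = 0.074, edgeR), and -1.44 without C3-3 with an adjusted p of 0.038. Of the KLF2 lymphocyte and endothelial genes, 5 of 9 were tested, 1 was increased and 0 were decreased, and without C1 the decreased genes numbered 2. Endothelial markers, low throughout, had sums of 7.13, 3.57 and 2.63 CPM in controls and 9.21, 10.6 and 11.4 CPM in Hdac1/2-deleted IEC. Most of the Hdac1/2-deleted sums was Egfl7, which rose from 0.434 ± 0.147 to 6.85 ± 0.390 CPM. Among the other tested endothelial markers, Esam was decreased (-2.74) and Pecam1, Eng, Cdh5 and Plvap were not called. Esam, Pecam1, Eng, Cdh5 and Plvap were named after their values were known. Fibroblast and smooth muscle markers summed to 74.5, 52.1 and 7.02 CPM in C1, C3 and C3-3 and to 12.9, 22.0 and 18.0 CPM in H1, H5 and H9. Of the 9 tested, 1 was increased and 5 were decreased. The increased marker, Pdgfrb, was at 9.30, 19.35 and 10.4 CPM in H1, H5 and H9. Myh11 was decreased (-10.67), as was Acta2 (-6.74). Myh11 was at 25.4, 12.6 and 0.452 CPM in C1, C3 and C3-3 and at most 0.0135 CPM in H1, H5 and H9. Its call ended without H1 or H9. Acta2 was at 12.5, 11.1 and 0.602 CPM in controls and at most 0.0975 CPM in Hdac1/2-deleted IEC. Of the T cell markers, 2 of 10 were decreased (8 without C1 and at most 1 without H1, H5, C3 or C3-3). Their sums were 148, 557 and 478 CPM in C1, C3 and C3-3 and 78.5, 178 and 153 CPM in H1, H5 and H9. The part of these cells in the Klf2 values was not tested.

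Dividing CPM by exon length in kilobases (RPKM) allowed the members to be ranked. In control IEC the order was Klf4 (74.4 ± 14.3 RPKM, mean ± SD, n = 3), Klf5 (32.3 ± 6.05), Klf6 (27.9 ± 0.677), Klf3 (12.1 ± 1.02), Klf13 (8.56 ± 1.44), Klf15 (4.65 ± 2.77), Klf10 (3.41 ± 1.12), Klf9 (3.03 ± 0.592), Klf7 (0.918 ± 0.0982) and Klf2 (0.329 ± 0.137). Klf5 did not differ from Klf6 beyond the spread, nor did Klf15 from Klf10 or Klf10 from Klf9. In Hdac1/2-deleted IEC, Klf4 (56.5 ± 2.55 RPKM) and Klf5 (28.4 ± 0.218 RPKM) kept ranks 1 and 2, and Klf6 (14.8 ± 4.88), Klf13 (11.0 ± 1.45), Klf3 (10.7 ± 0.551), Klf10 (9.76 ± 4.28) and Klf9 (5.90 ± 0.930) followed, each overlapping the next. Klf15 (0.664 ± 0.196 RPKM) dropped to the level of Klf7 (0.595 ± 0.161 RPKM), with which it overlapped.

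The summed RPKM of the 10 genes was 164, 159.8 and 179 in C1, C3 and C3-3 and 144, 134 and 137 in H1, H5 and H9, without overlap. Klf4 took 44.3 ± 7.03% of this sum in controls and 40.9 ± 3.00% in Hdac1/2-deleted IEC, and Klf5 19.4 ± 4.23% and 20.5 ± 0.797%. These shares overlapped between the groups. The share of Klf6 went from 16.7 ± 1.33% to 10.6 ± 3.15% and that of Klf15 from 2.73 ± 1.55% to 0.477 ± 0.121%. The share of Klf10 went from 2.03 ± 0.648% to 7.0 ± 2.86%, that of Klf9 from 1.81 ± 0.340% to 4.27 ± 0.730% and that of Klf13 from 5.10 ± 0.761% to 7.97 ± 1.34%. Each of these 5 shares was without overlap between the groups, and the shares describe the same counts as the fold changes above.

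**Figure D5:**
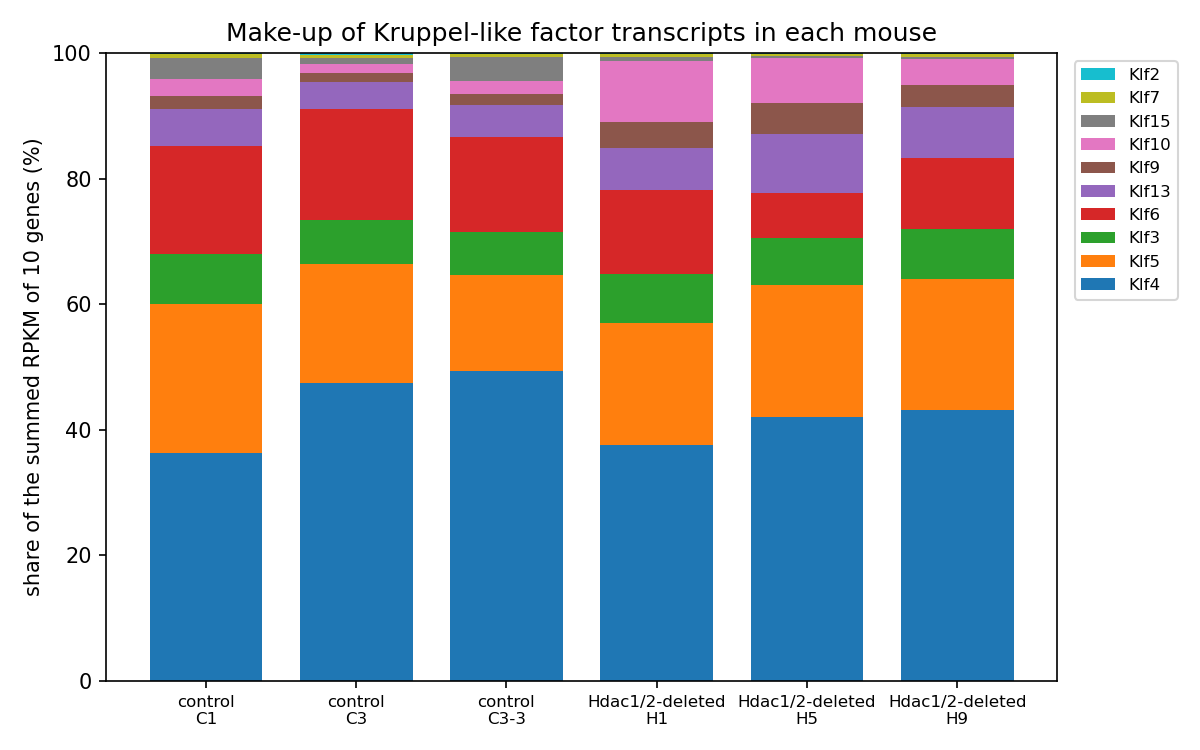
Share of each Kruppel-like factor in the summed RPKM of the 10 genes, as a percentage, in each of the 6 mice. Klf4 and Klf5 make up most of every bar, Klf10, Klf9 and Klf13 take more of the Hdac1/2-deleted bars (7.0%, 4.27% and 7.97% on average) and Klf6 and Klf15 less (10.6% and 0.477%).

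The rest of the KLF and Sp family also had members of either direction. Of 16 listed genes, 12 were in the table and 9 were tested. There was 1 increase and there were 2 decreases, and the median was -0.37 on the log2 scale. Sp5, a Wnt target and Sp factor of crypt cells, was at 16.2, 32.8 and 18.8 CPM in controls and 1.61, 1.16 and 2.10 CPM in Hdac1/2-deleted IEC. Its log2 fold change of -3.79 (adjusted p = 7.6e-05, edgeR) was larger in size than that of Klf15, and ranged from -4.01 to -3.42 when each mouse was left out. Sp4 fell by 1.61 (adjusted p = 0.0015). Klf12, a repressor that recruits CtBP, had 2, 2 and 12 counts in controls and 60, 19 and 16 counts in Hdac1/2-deleted IEC, and its increase (2.45, adjusted p = 0.032) was not called without H1, H5, C1 or C3 and was 3.92 without C3-3. Sp3 fell by 0.74 (adjusted p = 0.018) and Klf16 rose by 0.48 (adjusted p = 0.024), both under 2-fold.

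For the remaining tested genes the adjusted p was above 0.05. It was -0.37 on the log2 scale for Sp1 (adjusted p = 0.089), -0.87 for Klf1 (adjusted p = 0.17), -0.12 for Sp2 and -0.06 for Klf11, the nearest relative of Klf10. The signs of Sp2 and Klf11 turned with library totals alone, and those values were 0.07 and 0.11. Without C3-3 the Sp2 value was 0.04, and the Klf11 value was 0.38 without C1 and 0.11 without H9. Klf8, Klf17 and Sp6 did not pass the filter on low counts, with at most 25 counts in any library. Klf14, Sp7, Sp8 and Sp9 were not analysed here.

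The 18 cofactors and ubiquitin ligases of KLF proteins included 1 increase and 2 decreases, and their median was -0.08 on the log2 scale. Fhl3, a LIM-domain cofactor of KLF3, rose from 0.736 ± 0.350 to 43.0 ± 9.12 CPM, that is by 5.88 on the log2 scale (adjusted p = 2.9e-05, edgeR), and ranged from 5.52 to 6.13 when each mouse was left out. Kat2b, the acetyltransferase PCAF, fell by 1.75, and Fbxo32, an F-box ubiquitin ligase subunit, fell by 1.07, a call that ended without H1 or C3, where it was under 2-fold (-0.94 and -0.91). The HDAC1 and HDAC2 scaffolds Sin3a (0.74, adjusted p = 0.0021) and Sin3b (0.88, adjusted p = 5.9e-04) and the corepressor Ctbp2 (0.76, adjusted p = 0.0089) rose by less than 2-fold, and the acetyltransferase Crebbp fell by 0.83 (adjusted p = 0.0019). These 4 genes were named after their values were known.

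Immediate early genes, which are induced within minutes of stress and respond to tissue handling, gave 4 increases and 2 decreases among 20, or 4 decreases without H5, around a median of 0.22 on the log2 scale. Maff (1.97) and Egr1 (1.58) rose, and Jun (-1.55) and Btg2 (-2.67) fell. Klf4, Klf6 and Klf10 can be induced in the same way, and in these libraries Klf10 rose, Klf6 fell and Klf4 was not called. The part of tissue handling in them was not tested.

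By the root mean square difference of centred log2 CPM over the 6 libraries, among 11074 tested genes whose mean log2 CPM was 1 or more, the profile nearest to that of Klf4 was that of Cenpb (0.0465 log2), followed by Fkbpl and Oasl2. The nearest to Klf5 was Dcaf17 (0.0462), followed by Nhlrc2 and 2900097C17Rik. The nearest to Klf15 was Ptgr1, which went from 485 to 61.3 CPM on average, followed by Slc13a2 and Cutal. The distance to Ptgr1 was 0.367 log2. Such distances are not scaled to a gene's own spread over the libraries, which was wider for Klf15 than for Klf4. They therefore cannot show whether genes followed Klf15 less closely than Klf4. These are descriptions over 6 libraries.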

How the data were processed

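Poly(A)-selected libraries, 1 for each mouse, were made with a directional kit from jejunal IEC, for 3 control and 3 Hdac1/2-deleted mice, and libraries were grouped by their labels. Reads had been aligned by the authors with STAR, and the authors deposited raw read counts per gene, which were used here. The same deposited table gives a score per library, the counts multiplied by a factor and rounded, and the authors' own log fold changes, mean log CPM and p-values from DESeq and edgeR, and none of these were used. The paper names GRCm38, while the submitters' processing notes list STAR 2.4.0f1 and mm9; no coordinates are in the table, and positions and lengths were taken from GENCODE M21 and RefSeq (both GRCm38) by gene identifier or symbol. The counting program, its annotation and its use of strand are not given in the sources used here.

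Counts were filtered with filterByExpr and fitted on the whole table with edgeR 4.0.16 (R 4.3.3, limma 3.58.1; TMM, robust quasi-likelihood, no covariates), with Benjamini-Hochberg adjustment over 15618 genes and the limits of adjusted p 0.05 and 2-fold. Standard errors are the log2 fold change divided by the square root of F. RPKM is CPM per kilobase of the union of exons. Alternatives were RLE and library-total scaling, DESeq2 1.42.0, no filter or at least 10 counts in every library, a fit that was not robust, the adjusted p alone, the longest transcript as length, and leaving out each mouse. The steps were tested on simulated data. Plots were made with matplotlib 3.10.9 in Python 3.11.15.

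All members and every gene of the other KLF and Sp list were named, with Hdac1 and Hdac2. From each other list at most 4 called genes were named, the 2 largest increases and the 2 largest decreases whose mean log2 CPM was 1 or more, and genes outside this rule are marked. The members and the 17 other lists were chosen with earlier results of these data known. In the lists of other cells not described above, macrophage markers gave 3 increases and 1 decrease among 9, endothelial markers 1 and 1 among 6, B cell and plasma cell markers 1 and 0 among 4, fibroblast and smooth muscle markers 1 and 5 among 9, and epithelial markers 1 and 2 among 14. Zinc finger sequences of the proteins were not analysed here.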

Additional observations from a re-analysis of the deposited data

How the results depend on the processing

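Of the values of the 10 members under 12 alternatives, 114 kept their direction and their side of the call, 5 passed the call and 1 reversed. Klf6, Klf9, Klf10 and Klf15 kept an adjusted p of at most 0.05 in each of them. Scaling by library totals alone, which raised the median of all genes by 0.19 on the log2 scale, reversed Klf3 (0.0083, adjusted p = 0.97, edgeR), took Klf9 to 1.14 and brought the increased members to 2. That scaling gave 2463 increased and 1538 decreased genes against 1944 and 1990. The adjusted p alone gave 2 increased and 2 decreased members. When each mouse was left out in turn, the increased members numbered 1 to 2 and the decreased members 1 to 2. In those fits Klf2 ranged from -1.44 to -0.91, Klf6 from -1.14 to -0.67 and Klf9 from 0.82 to 1.10. With the longest transcript as length, 6 members kept their rank in Hdac1/2-deleted IEC and 10 in control IEC. Of the counts of calls within single lists, 371 stayed within 1.5 times of the reported count and 71 did not. Among other cells, increased macrophage markers numbered 1 without H5, H9, C3 or C3-3, decreased fibroblast and smooth muscle markers 2 without H1 and 3 without H9, decreased endothelial markers 2 without C3-3, increased B cell and plasma cell markers 2 without C1, and increased epithelial markers 0 without H5 or C3. With 3 mice a group, an exact permutation test of a single gene cannot give a p below 0.10, and Klf2, with at most 47 counts per library, and Klf12 rest on few reads. No paired analysis was possible because the control and Hdac1/2-deleted mice share only the number 1 in their labels.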
